A study of Mus musculus with 24 samples.

Results

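A set of 9 genes of insulin signalling and glucose handling were followed in the retroperitoneal white adipose tissue of 24 mice by RNA-seq. They were taken by symbol, in a choice made with earlier results of these data known: Slc2a4, Slc2a1, Insr, Irs1, Irs2, Pik3r1, Akt2, Pck1 and Pdk4. All 9 of 9 were found among the 56895 named entries of the deposited tables, and all 9 passed the filter on low reads in every comparison. On the HF diet Insr and Pdk4 fell in males, to 0.626 and 0.424 of their LF levels. The Pdk4 call was lost in 9 of 12 fits that left out 1 male. Neither call held without the males high in muscle markers, without the libraries with renal in their name or relative to adipocyte markers. In females Insr, Pck1 and Pdk4 had lower values on HF without passing the test. No gene of the 9 passed the test between VDD and CTRL mothers.

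The mice, labelled C57BL/6J, fell into 8 groups of 3, formed by what the mother ate, what the offspring ate and sex. Mothers were fed AIN-93G with vitamin D3 at 1.0 IU/g (CTRL) or without it, at 0.0 IU/g (VDD), for 8 weeks before mating and on through pregnancy, and every mother received the control diet from birth to weaning. Offspring of both kinds of mother were given, from 6 weeks of age and for 8 weeks, a low-fat diet (LF, AIN-93M) or a high-fat diet (HF, a DIO rodent diet with 45% of its energy from fat). The groups are thus CTRL LF, CTRL HF, VDD LF and VDD HF in males and in females. The deficiency was dietary and limited to the mothers, the LF and HF diets are different purified formulas, and no litter is named for any mouse, so p-values measure the spread between mice that may share a mother. The mice were fasted overnight before the tissue was taken.

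In adipocytes insulin binds its receptor (Insr), which phosphorylates the adaptors IRS1 and IRS2. These recruit PI3K, whose regulatory subunit p85 alpha is encoded by Pik3r1, and the lipid it makes activates AKT2. AKT2 then moves GLUT4 (Slc2a4) to the cell surface, where glucose enters, while GLUT1 (Slc2a1) carries glucose independently of insulin. Pck1 and Pdk4 lie at the output: PEPCK makes the glycerol backbone of triglycerides from pyruvate and lactate, and PDK4 closes pyruvate dehydrogenase so that fat is burned in place of glucose. Transcription of both is high in fasting and is held down by insulin.

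The libraries held 13346779 to 18484346 reads assigned to genes. All 10 adipocyte markers (such as Adipoq, Plin1 and Lipe) were expressed in every group, with sums of 570127 to 1370888 normalized reads. Skeletal muscle markers stood above 100000 normalized reads in 4 libraries, all of them from VDD offspring (VDD LF male 2310, VDD HF males 2298 and 2307, VDD LF female 2303), against a median of 1511 over the 24. Kidney markers reached 9176 in VDD LF female 2303 and at most 422 elsewhere, and adrenal markers passed 10000 in CTRL HF females 2290 and 2292 and VDD HF female 2121. Brown fat markers were highest in VDD HF females 2121 (40460) and 2083 (25095). Leaving out these 7 libraries is given beside the results it bears on, and where it leaves a group with 1 mouse, that mouse is assumed to vary like the others. In bulk tissue fewer cells of a type and less RNA per cell cannot be told apart.

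Per length, Pck1 was the most abundant of the 9 transcripts and Slc2a1 the least. With reads divided by the length of the gene's exons and scaled to the same total in every library, the median over 24 mice was 2639 for Pck1, 483 for Pdk4, 138.5 for Akt2 and 107 for Slc2a4. It was 42.9 for Irs2, 41.0 for Pik3r1, 38.6 for Insr, 29.5 for Irs1 and 8.9 for Slc2a1. The medians of Irs2, Pik3r1, Insr and Irs1 lay within the ranges of one another, and so did those of Akt2 and Slc2a4. The order within each of these sets thus does not exceed the spread between mice. GLUT4 transcripts thus outnumbered GLUT1 transcripts in this tissue, with no overlap between their ranges (62.1 to 157 for Slc2a4 and 6.7 to 17.3 for Slc2a1).

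In the mouse genome (mm10, GENCODE M21, GRCm38), the gene of the insulin receptor, Insr (ENSMUSG00000005534.10), spans chr8:3122061-3279617 on the minus strand. Pck1 (ENSMUSG00000027513.11) spans chr2:173153048-173159273 on the plus strand and Pdk4 (ENSMUSG00000019577.6) chr6:5483351-5496309 on the minus strand. Reads of all exons of a gene are counted together, so no isoform is resolved. The promoters of Pck1 and Pdk4 are shown because these output genes were at lower means on HF than on LF in each of the 4 diet comparisons, as Insr and Akt2 also were. On the log2 scale of the tests Irs2 was lower in all 4 as well. A further reason is that the Pck1 promoter is a classic target of glucagon and insulin. Each is the 250 bases before the transcription start (RefSeq, GRCm38.p6), chr2:173152823-173153072 on the plus strand and chr6:5496279-5496528 on the minus strand, with capitals marking the motif matched:
Pck1: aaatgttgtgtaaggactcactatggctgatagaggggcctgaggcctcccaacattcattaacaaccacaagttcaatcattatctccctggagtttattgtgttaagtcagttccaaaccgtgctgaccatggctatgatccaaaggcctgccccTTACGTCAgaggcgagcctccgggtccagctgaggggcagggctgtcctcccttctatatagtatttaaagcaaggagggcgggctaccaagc
Pdk4: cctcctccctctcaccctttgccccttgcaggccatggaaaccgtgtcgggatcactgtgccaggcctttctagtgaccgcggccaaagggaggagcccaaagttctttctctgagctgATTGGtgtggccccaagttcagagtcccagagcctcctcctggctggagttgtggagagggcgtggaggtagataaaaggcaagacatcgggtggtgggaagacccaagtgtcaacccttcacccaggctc
The capitals in Pck1 are TTACGTCA, a form of the cAMP response element, from 93 to 86 bases before the start. That element, searched as TGACGTCA or TTACGTCA on both strands, stood in 1.98% of 32851 promoter windows of this length and, of the 7 members with a window, in Pck1 alone. The capitals in Pdk4 are ATTGG, which on the opposite strand reads as the CCAAT box (131 to 127 bases before the start), which 33.8% of the windows held. The FoxO motif GTAAACA (3.17% of windows) and the vitamin D response element, searched as a direct repeat of hexamers 3 bases apart (0.0122%), were in none of the members' windows. The RefSeq starts of Pck1 and Pdk4 lie inside the GENCODE spans given above, so each window overlaps its span, and positions are counted from the RefSeq start. A match is a description of letters and not a bound site.

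**Figure D1:**
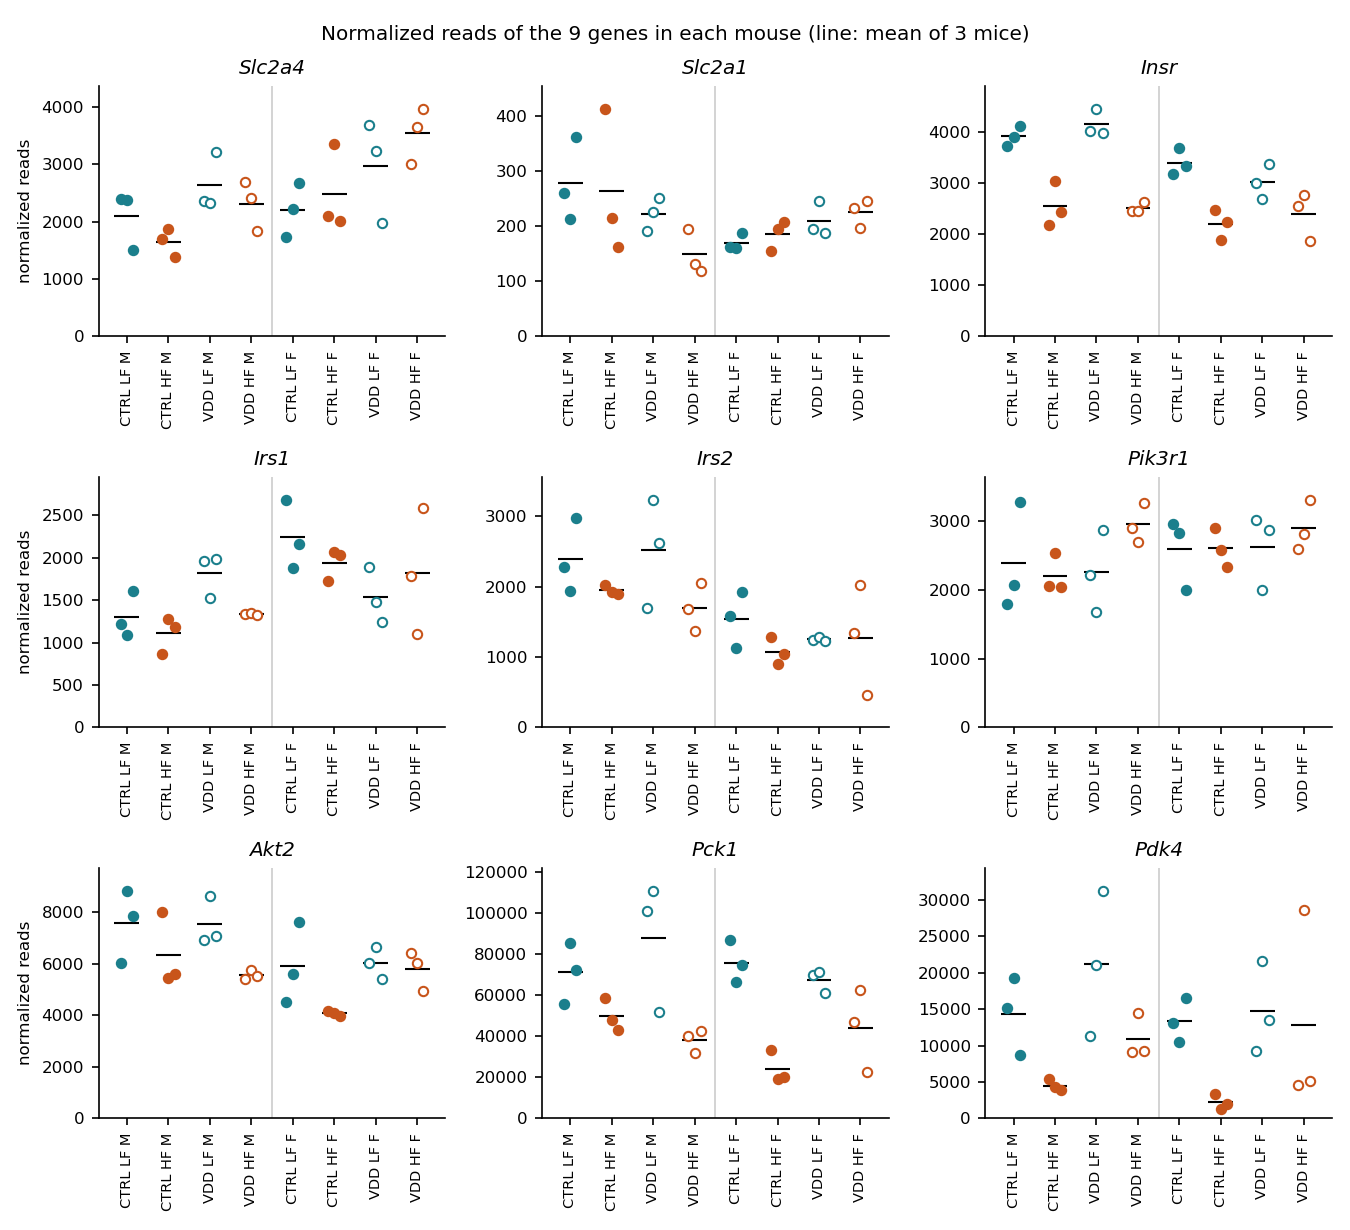
Normalized reads (y axis, from 0) of each of the 9 genes in each mouse, with 8 groups on the x axis (M males, F females), 3 points a group, filled for CTRL and open for VDD mothers, teal for LF and orange for HF, and a line at the group mean. Insr shows 6 LF males between 3726 and 4462 and 6 HF males between 2181 and 3040.5, and Pdk4 shows the CTRL HF mice between 1334 and 5363.

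The HF diet was compared with the LF diet within each kind of mother and sex, to see what fat feeding did to the pathway and whether the mother's diet altered it. A gene was called at a limma adjusted p under 0.01 with a fold change above 1.5 or below 0.66. With 3 against 3 mice, 0 of 9 genes were called in any of the 4 comparisons. Few genes of all were: 0.0578% in CTRL males, 0.0752% in VDD males and 0.0% in CTRL and in VDD females. The paper, with DESeq2 at like thresholds, reported more differentially expressed genes in each of these comparisons. At an unadjusted p under 0.05, 2 genes were lower under HF in CTRL males, 5 in VDD males, 5 in CTRL females and 0 in VDD females, and none was higher (10%, 13.7%, 14.4% and 2.51% of all genes were). Of all genes tested, 8.73%, 12.2%, 14.4% and 2.54% were lower at that threshold. The 3 HF values lay wholly below the 3 LF values for 2, 4, 4 and 0 of the 9 genes, beside 11.7%, 16.5%, 18.2% and 6.06% of all genes. At an adjusted p under 0.05 with the same fold change, 1 gene was lower in CTRL males (Pdk4), 1 in VDD males (Insr) and 3 in CTRL females (Insr, Pck1 and Pdk4), where 1.17%, 5.27% and 6.6% of all genes passed. The median log2 difference of the 9 was -0.29 in CTRL males, -0.53 in VDD males, -0.52 in CTRL females and -0.06 in VDD females, beside medians over all genes of -0.02, 0.01, 0.01 and -0.01. Pooling both kinds of mother (6 LF against 6 HF mice of a sex) gave the tests more mice. In males 2 of 9 genes were then called, Insr and Pdk4, both lower, against 6.91% of all genes, while in females 0 of 9 were called, as were 0.0% of all genes. At an unadjusted p under 0.05, 6 of 9 were lower in males and 3 of 9 in females, with none higher, beside 16.5% and 10.6% lower and 18.5% and 10.5% higher among all genes. Only Insr in males had its 6 HF values below its 6 LF values, and no member did in females (0.895% of all genes). At an adjusted p under 0.05 with the fold change, Pck1 joined Insr and Pdk4 in males, 3 of 9 beside 14.7% of all genes.

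The transcript of the insulin receptor had lower values on HF in males of both kinds of mother, not called in either alone. In CTRL males, Insr had 3726, 3899.9 and 4134 normalized reads on LF and 2181, 2447 and 3040.5 on HF (log2 difference -0.64, SE 0.18, limma adjusted p = 0.12). In VDD males it had 3991, 4020.3 and 4462 on LF and 2459, 2465 and 2638 on HF (-0.72, SE 0.12, limma adjusted p = 0.030). The values did not overlap in either pair, and the 6 LF males stood above the 6 HF males, a separation in this direction that 4.22% of all genes showed. Averaged over mothers, Insr fell by 0.67 on the log2 scale (SE 0.10, fold 0.626, limma adjusted p = 0.0016). The call held in each of 12 fits that left out 1 male. It was lost without the males high in muscle markers (-0.66, limma adjusted p = 0.016), without the libraries with renal in their name (-0.65, limma adjusted p = 0.099) and relative to adipocyte markers (-0.27, limma adjusted p = 0.34). In CTRL females, Insr had 3178, 3344 and 3698 reads on LF and 1882, 2252 and 2488.3 on HF, again with no overlap (log2 difference -0.65, SE 0.13, limma adjusted p = 0.036). VDD females had 2693, 3006 and 3384 on LF and 1863, 2547 and 2776 on HF, which overlap. Over both kinds of mother the female difference was -0.49 (SE 0.12, limma adjusted p = 0.076), and the difference between the sexes was 0.18 (SE 0.15, limma adjusted p = 0.77). From highest to lowest group mean, Insr ran from VDD LF males (4158 ± 264, SD, n = 3) to CTRL HF females (2208 ± 305), with the 4 LF groups above the 4 HF groups. Neighbours in this order had overlapping ranges, except CTRL LF males (3726 to 4134) and CTRL LF females (3178 to 3698).

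None of the adaptors and kinases below the receptor was called under HF. Irs1 in males differed by -0.34 on the log2 scale (SE 0.13, limma adjusted p = 0.093) and Irs2 by -0.40 (SE 0.17, limma adjusted p = 0.12). In VDD males Irs1 had 1531, 1962 and 1983 reads on LF and 1327, 1339 and 1345 on HF, with no overlap. Akt2, the AKT isoform that serves glucose uptake, differed by -0.35 in males (SE 0.14, limma adjusted p = 0.10) and by -0.28 in females (SE 0.13, limma adjusted p = 0.25). Its 3 CTRL HF females, at 3963, 4089.7 and 4178 reads, lay below the 3 CTRL LF females at 4505, 5622 and 7642. Pik3r1 had the narrowest range of the 9, 1669 to 3301 reads or 1.98-fold, and differed between diets by 0.18 in males (SE 0.17) and 0.09 in females (SE 0.14), with limma adjusted p of 0.51 and 0.74.

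Neither glucose transporter passed the test under HF. Slc2a4 differed by -0.25 in males (95% confidence interval -0.61 to 0.10) and by 0.23 in females (-0.19 to 0.64). Slc2a1 differed by -0.38 in males (-0.90 to 0.13) and by 0.11 in females (-0.15 to 0.37). The intervals of both genes include 0, and the difference between the sexes in the response had an limma adjusted p of 0.62 for each. Across the 24 mice Slc2a4 ranged from 1389 to 3961 normalized reads and Slc2a1 from 118.5 to 413.

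Pck1 and Pdk4, the output genes, had the largest pooled differences of the 9 in both sexes. In CTRL females Pck1 had 66457, 74645 and 87049 reads on LF and 19054, 20262 and 33258 on HF, with no overlap (log2 difference -1.71, SE 0.32, limma adjusted p = 0.031). In VDD females it had 61187, 70061 and 71440.4 on LF and 22889, 46931 and 62869.7 on HF, with 1 HF mouse inside the LF range. In CTRL males Pck1 had 55804, 72631 and 85331 on LF and 42950.1, 47974 and 58590.5 on HF, which overlap. In VDD males it had 51971, 100983 and 111036 on LF and 32016, 39991 and 42807 on HF, without overlap. Over both kinds of mother the difference was -0.82 in males (SE 0.24, limma adjusted p = 0.035) and -1.21 in females (SE 0.27, limma adjusted p = 0.070), neither under 0.01. The lowest LF male, VDD LF male 2310, is the library with the most muscle RNA, and without it Pck1 was called in males (-0.99, limma adjusted p = 0.0055). No other fit that left out 1 male called Pck1. It was also not called without all the males high in muscle markers, nor relative to adipocyte markers.

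Pdk4 varied the most of the 9, over a 23.4-fold range. In CTRL females it had 10471, 13129 and 16475 reads on LF and 1334, 1935 and 3380.2 on HF, a fold of 0.154 with no overlap (log2 difference -2.70, SE 0.33, limma adjusted p = 0.018). In CTRL males it had 8706, 15138 and 19234 on LF and 3843, 4370.0 and 5363 on HF, also apart (-1.62, SE 0.30, limma adjusted p = 0.039). In VDD males it had 11260.2, 21038 and 31246 on LF and 9114, 9228 and 14458 on HF, with 1 HF mouse inside the LF range. In VDD females it had 9239.6, 13524 and 21616 on LF and 4655, 5089 and 28570.3 on HF, so that the highest and the lowest of the 6 were both HF mice. Averaged over mothers, Pdk4 fell by 1.24 on the log2 scale in males (SE 0.27, fold 0.424, limma adjusted p = 0.0096), a call that lay at the threshold. It was lost in 9 of 12 fits that left out 1 male and held only without CTRL LF male 2296, VDD LF male 2078 or VDD LF male 2310. In females the difference was -1.67 (SE 0.44, limma adjusted p = 0.084). The mouse with 28570.3 reads is VDD HF female 2083, and without this mouse Pdk4 was called in females (-2.09, limma adjusted p = 0.0069). CTRL HF females 2290 and 2292 are high in adrenal markers, and without them the HF differences in CTRL females, resting on 1 HF mouse, were -3.30 for Pdk4, -1.99 for Pck1, -0.86 for Insr and -0.50 for Akt2, none called (limma adjusted p = 0.028, 0.11, 0.078 and 0.38). In VDD males without 2310, 2298 and 2307, which also leaves 1 HF mouse, they were -0.75 for Pdk4, -1.31 for Pck1 and -0.69 for Insr, none called. In females pooled over mothers, without the libraries high in other tissues, they were -1.93 for Pdk4, -1.14 for Pck1 and -0.52 for Insr, none called.

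**Figure D2:**
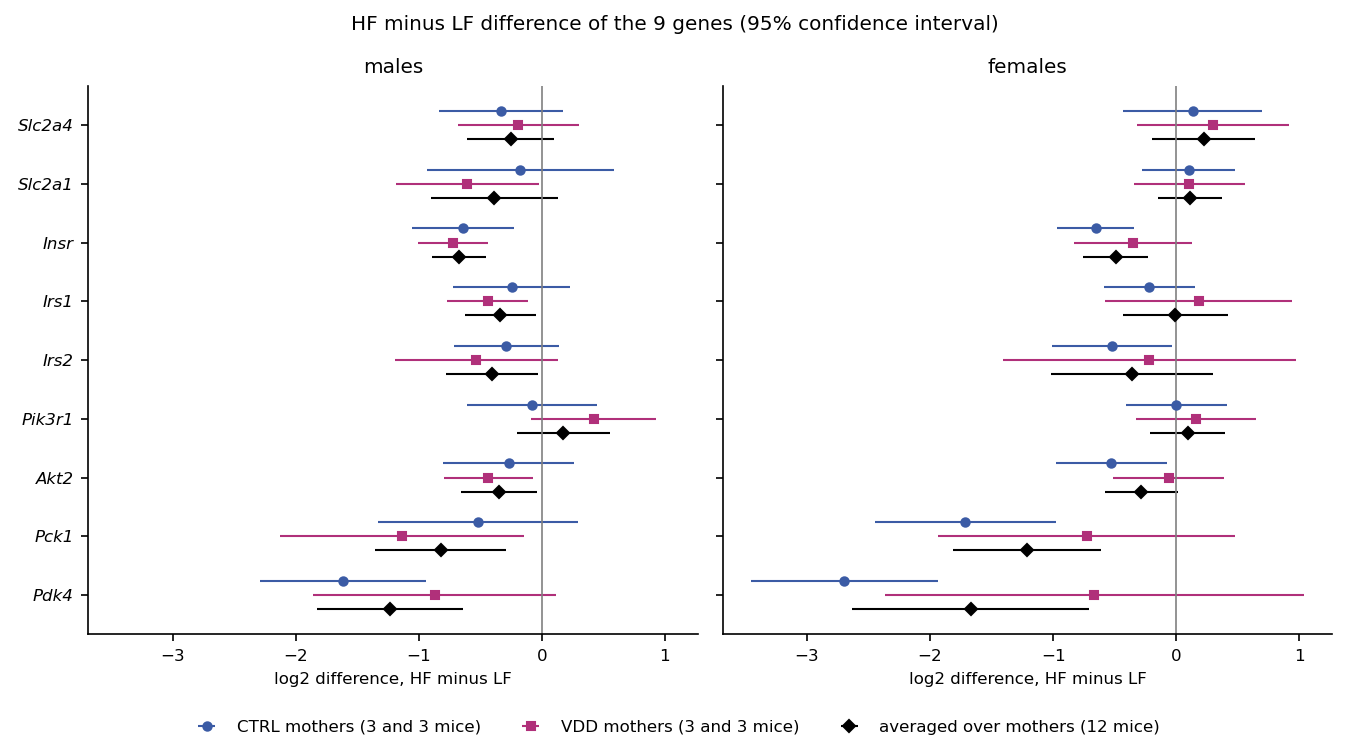
Log2 difference HF minus LF (x axis) of the 9 genes (y axis) in males and females, with 95% confidence intervals, for offspring of CTRL mothers (blue circles), of VDD mothers (magenta squares) and averaged over mothers (black diamonds). The averaged intervals of Insr, Pck1 and Pdk4 lie below 0 in both sexes, while those of Slc2a4, Slc2a1 and Pik3r1 include 0.

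Most adipocyte markers also had lower values on HF. In males 7 of 10 adipocyte markers were lower, 4 of them at an unadjusted p under 0.05, with a median log2 difference of -0.37, and 2 were called. In females 8 of 10 were lower, 3 at that threshold, with a median of -0.27 and none called. Their summed level ranged from 661176 to 1370888 reads on LF and from 570127 to 1112245 on HF. Set relative to the mean log2 level of the adipocyte markers, a choice made after the data were seen, the male difference of Insr became -0.27 (limma adjusted p = 0.34) and that of Pdk4 -0.83 (limma adjusted p = 0.090), and neither was called. On that scale the median over all genes shifted by 0.40 in these males. The female difference of Pdk4 in CTRL offspring was -2.21 and was called on that scale (limma adjusted p = 0.0066), as were 937 of 16563 genes against 0 on the scale used elsewhere, with the median over all genes shifted by 0.48. Macrophage markers lay the other way, and 9 of 10 were higher in HF males (8 at p under 0.05, 1 called, median 0.73) and 10 of 10 in HF females (6 at p under 0.05, none called, median 0.78). Brown fat markers had lower values on HF in CTRL females, 7 of 8 (6 at an unadjusted p under 0.05, none called, median -2.40), beside the -2.70 of Pdk4 there. In males pooled over mothers 8 of 9 had lower values (3 of them at that threshold) and 1 was higher, also at that threshold (median -0.85). Of these 9 markers 1 was called, in a direction not given here. In VDD females 7 of 8 were higher (1 at that threshold, median 1.32). Brown fat sums were 2176 to 11979 in CTRL LF females and 942 to 1477 in CTRL HF females. The part of cell make-up in the differences of the 9 genes was not tested further. Without the 3 males high in muscle markers, Pdk4 differed by -1.17 (limma adjusted p = 0.023), of like size and no longer called.

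**Figure D3:**
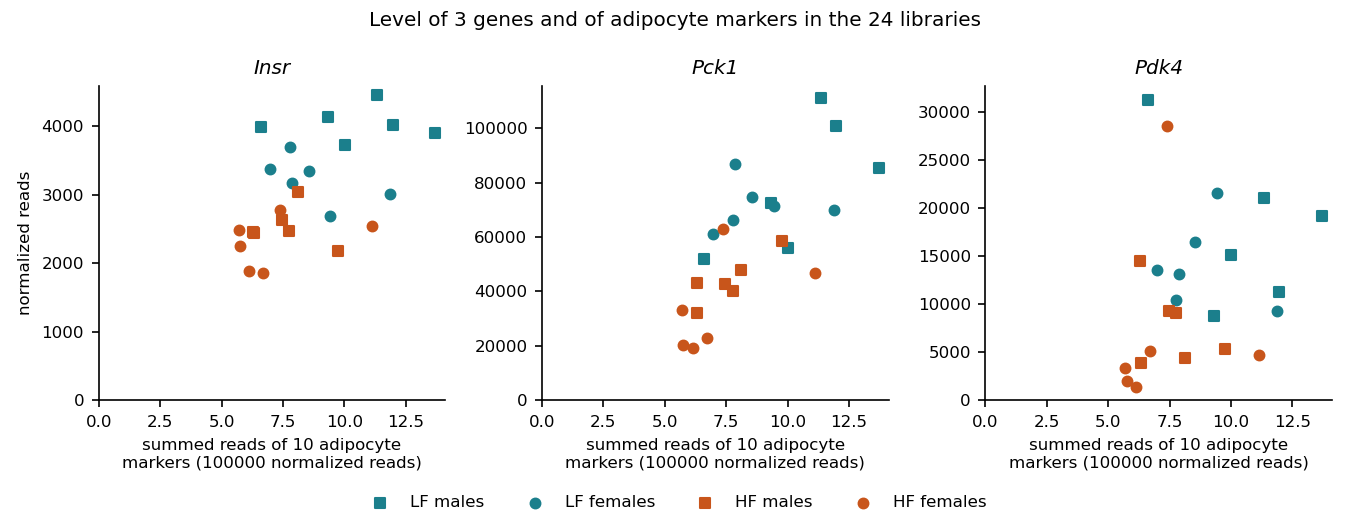
Normalized reads of Insr, Pck1 and Pdk4 (y axes, from 0) against the summed normalized reads of 10 adipocyte markers (x axis, in units of 100000) in the 24 libraries, squares for males and circles for females, teal for LF and orange for HF. The marker sum reaches 1370888 on LF and 1112245 on HF. For Pdk4, VDD LF male 2310 (31246) stands high at the lowest marker sum of the LF libraries (661176). VDD HF female 2083 (28570.3) stands high at a marker sum of 737994.

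The other genes of the pathway were taken from 8 lists with 131 genes, of which 128 were tested in males and 129 in females. With mice pooled over mothers, 9 of the 128 rose and 13 fell on HF in males, and 0 of the 129 were called in females, beside the 6.91% and 0.0% of all genes given above. At an unadjusted p under 0.05, 14 were higher and 36 lower in males, and 16 higher and 23 lower in females, where 18.5% and 16.5% of all genes in males and 10.5% and 10.6% in females were higher and lower. These background shares apply to the list counts that follow. The median difference was -0.04 in males and -0.11 in females, beside 0.00 (-0.0029) and 0.02 over all genes. The 4 called with the smallest p in males were all lower. Sh2b2, an adaptor that docks on the insulin receptor, fell by 1.89 on the log2 scale (SE 0.18, limma adjusted p = 0.00016), from group means of 1288.5 and 1794.7 reads on LF (CTRL, VDD) to 497.9 and 336.9 on HF. Pdk2, a kinase of pyruvate dehydrogenase like Pdk4, fell by 1.315 (SE 0.16, limma adjusted p = 0.00061). Slc2a3, the high-affinity transporter GLUT3, fell by 1.335 (SE 0.16, limma adjusted p = 0.00062), and Pdp2, a phosphatase that opposes the kinases, fell by 0.88 (SE 0.11, limma adjusted p = 0.00073).

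By count, the pyruvate dehydrogenase list had more calls than any other of the 8 lists in males. The lists differ in size, and the other glucose transporters had a like share of calls, 3 higher and 2 lower of 9. In males 6 of its 13 genes were called lower and 1 higher, and at an unadjusted p under 0.05 11 were lower and 1 higher (median -0.74). In females none was called, 5 were lower and 1 higher at that threshold (median -0.44). The list holds enzyme subunits, the kinases that close the complex, the phosphatases that open it and the pyruvate carrier, so its members act in opposite directions. Of the kinases beside Pdk4, chosen here for their kinship to it after their values were seen, Pdk1 fell by 1.025 in males (limma adjusted p = 0.0038) and Pdk3 rose by 0.87 (limma adjusted p = 0.0071). In females Pdk1 differed by -1.25 and Pdk2 by -1.03 (both limma adjusted p = 0.041), and Pdk3 by 0.58 (limma adjusted p = 0.072). The carrier Mpc1, also picked after its values were seen, fell by 1.35 in males (limma adjusted p = 0.0048) and Pdha1, the catalytic alpha subunit, by 1.14 (limma adjusted p = 0.0024).

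The negative regulators split. Of 19 tested in males 2 were called higher and 1 lower, and Grb14, which binds the insulin receptor and blocks its kinase, had 42.4 to 58.5 reads in CTRL LF males and 187 to 197 in CTRL HF males (log2 difference 1.96, SE 0.23, limma adjusted p = 0.010, just over the threshold). Over both kinds of mother Grb14 rose by 2.05 (SE 0.33, limma adjusted p = 0.0024). Trib3, a pseudokinase that can bind AKT, differed by -1.54 in CTRL females (SE 0.18, limma adjusted p = 0.018). Of the other facilitative glucose transporters 3 of 9 were called higher and 2 lower in males. GLUT4 vesicle traffic, the machinery that carries GLUT4 to the membrane, had 1 of 20 genes called higher and a median of -0.01 in males and -0.04 in females. In VDD females the 2 genes with the smallest p were Aldoc, an aldolase (-1.49), and Pdk1 (-0.90), each with an limma adjusted p of 0.84.

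**Figure D4:**
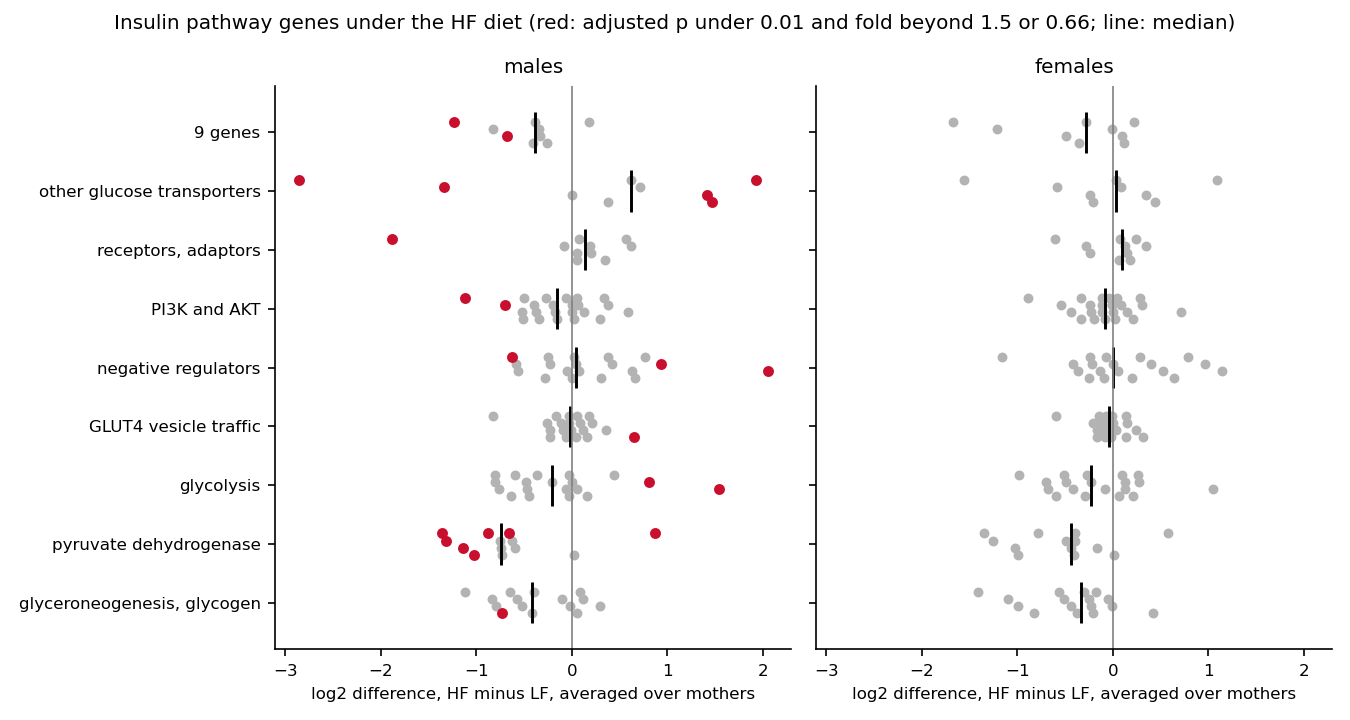
Log2 difference HF minus LF averaged over mothers (x axis) for each tested gene of the 9 and of 8 other pathway lists (rows), in males and females; red points passed the call, grey points did not, and a line marks the list median. In males 24 red points include 6 on the low side of the pyruvate dehydrogenase list, and in females there is no red point.

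Maternal VDD was compared with CTRL on each offspring diet. In the 4 comparisons 0 of the 9 genes passed the limma test, nor did any other gene (0.0% of 15438 to 16480 genes). The paper, with DESeq2 at like thresholds, reported differentially expressed genes in each of these comparisons. The counts given here hold for limma on log2 values of 3 against 3 mice. At an unadjusted p under 0.05, 1 gene had higher values in VDD offspring among LF males, 3 among HF males, 0 among LF females and 2 among HF females, beside 3.12%, 3.18%, 5.52% and 7.6% of all genes. Only Irs1 in LF females was lower at that threshold, beside 3.67%, 2.12%, 6.53% and 9.1%. The VDD values lay wholly above the CTRL values for 0, 3, 1 and 2 of the 9 genes (6.83%, 5.04%, 8.48% and 11.1% of all genes) and wholly below for 0, 1, 0 and 0 (6.59%, 5.25%, 9.74% and 11.8%). Averaged over offspring diets none was called (0.0% in either sex). At an unadjusted p under 0.05, 3 were then higher and 1 lower in males (4.89% and 4.31% of all genes), and 3 were higher and 0 lower in females (11.2% and 12.4%). These comparisons share their mice with the diet comparisons above, so the values of both are set side by side and not counted as separate evidence.

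Pdk4 had higher values in VDD than in CTRL offspring on HF in both sexes, without passing the test. In males on HF it had 3843, 4370.0 and 5363 reads in CTRL and 9114, 9228 and 14458 in VDD offspring, which did not overlap (log2 difference 1.24, SE 0.24, fold 2.35, limma adjusted p = 0.94). In females on HF it had 1334, 1935 and 3380.2 in CTRL and 4655, 5089 and 28570.3 in VDD offspring, again without overlap (2.10, SE 0.72, limma adjusted p = 0.23), and 1.25 without VDD HF female 2083. A separation upward was seen for 5.04% of all genes in HF males and 11.1% in HF females. On LF the differences were 0.53 in males (SE 0.46) and 0.09 in females (SE 0.34), with overlapping values. Averaged over offspring diets, the difference was 0.88 in males (SE 0.27, limma adjusted p = 0.45) and 1.09 in females (SE 0.44, limma adjusted p = 0.17). VDD HF males 2298 and 2307 hold 273825 and 423135 reads of skeletal muscle markers against at most 3774 in CTRL HF males, and muscle expresses Pdk4 and Slc2a4. With the muscle score as a covariate the male average of Pdk4 was 0.58 (limma adjusted p = 0.80), and without the libraries high in other tissues it was 0.61. The part of muscle RNA in the difference was not tested further. In HF females 8 of 8 brown fat markers were higher in VDD offspring (6 at an unadjusted p under 0.05, none called, median 4.06), with sums of 942 to 1477 in CTRL and 3846 to 40460 in VDD offspring. In HF males 4 of 6 brown fat markers were higher and 2 lower in VDD offspring (2 higher at that threshold, 0 called, median 1.47). Averaged over diets 8 of 9 were higher in males (median 1.16). The part of brown fat markers in the Pdk4 difference was not tested in either sex.

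Slc2a4 differed between VDD and CTRL offspring by 0.41 in males (SE 0.16, limma adjusted p = 0.51) and by 0.47 in females (SE 0.19, limma adjusted p = 0.17), neither past the test. Without the libraries high in muscle, kidney or adrenal markers these values were 0.18 and 0.10. The skeletal muscle markers were higher in VDD males, 15 of 15 with a median of 4.64 and none called, and in VDD females, 15 of 15 with a median of 0.60 and none called. Pik3r1 in HF males had 2034, 2044 and 2532 reads in CTRL and 2684, 2896 and 3260.3 in VDD offspring, with no overlap (0.41, SE 0.15, limma adjusted p = 0.94), and the difference was 0.55 without VDD HF males 2298 and 2307. Akt2 in HF females had 3963, 4089.7 and 4178 reads in CTRL and 4943, 6031 and 6408 in VDD offspring, with no overlap (0.51, SE 0.16, limma adjusted p = 0.20). In those females 9 of 10 adipocyte markers were higher in VDD offspring with a median of 0.52 and none called, and relative to them Akt2 differed by 0.07. Without CTRL HF females 2290 and 2292 and VDD HF female 2121 it differed by 0.59 (limma adjusted p = 0.84).

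Irs1 differed with opposite signs in the sexes. On LF, VDD males had 1531, 1962 and 1983 reads against 1091, 1222 and 1606 in CTRL males (0.50, SE 0.20, limma adjusted p = 0.69), and VDD females had 1238, 1478 and 1892 against 1875, 2159 and 2684 in CTRL females (-0.55, SE 0.20, limma adjusted p = 0.40). Averaged over diets the differences were 0.39 in males and -0.36 in females, and their difference was -0.75 (SE 0.24, limma adjusted p = 0.70). Slc2a1 had the opposite signs, -0.52 in males and 0.29 in females, with a difference of 0.80 (SE 0.27, limma adjusted p = 0.70). Neither passed after adjustment, nor did any gene for this interaction (0.0%). Insr, Irs2 and Pck1 averaged between -0.13 and 0.32 in both sexes, with limma adjusted p of 0.51 or more.

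**Figure D5:**
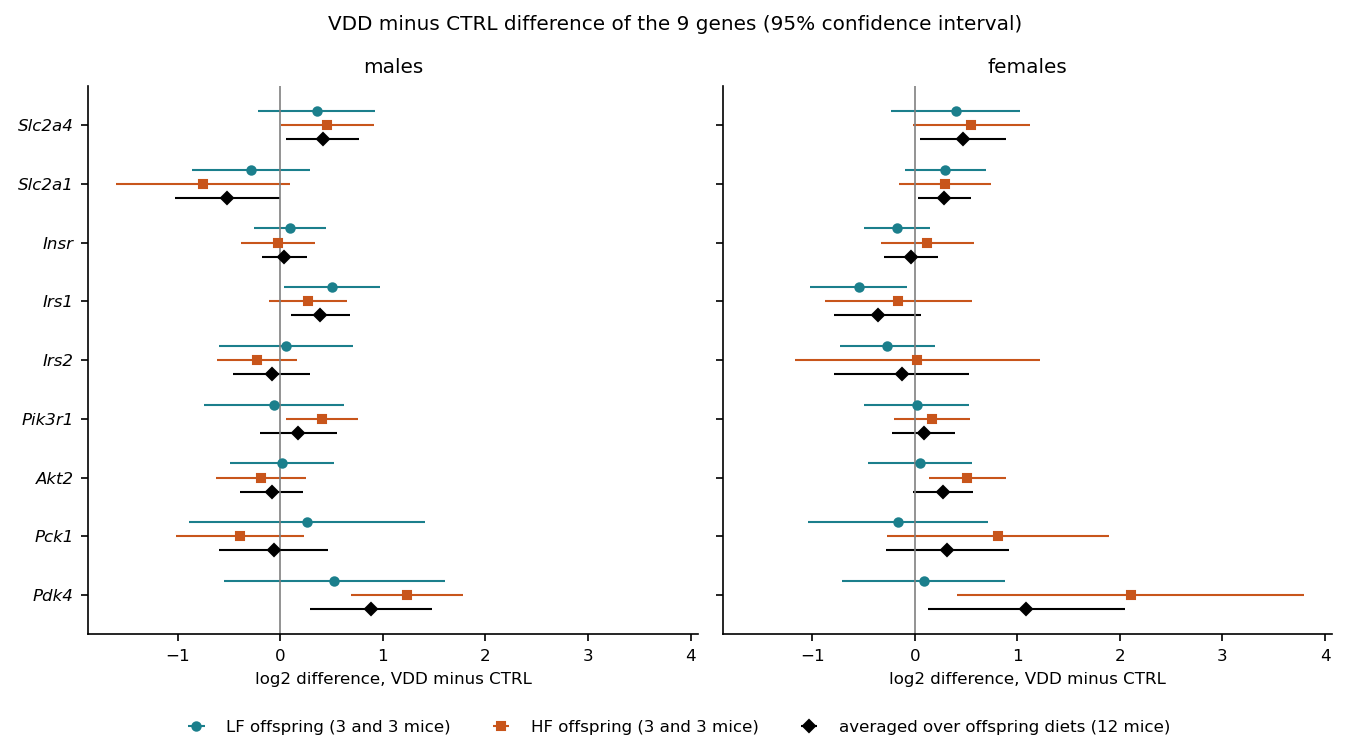
Log2 difference VDD minus CTRL (x axis) of the 9 genes (y axis) in males and females, with 95% confidence intervals, for LF offspring (teal circles), HF offspring (orange squares) and averaged over offspring diets (black diamonds). Pdk4 on HF lies above 0 in both sexes with its widest interval in females, and Irs1 and Slc2a1 lie on opposite sides of 0 in males and females.

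Among the other pathway genes 0 were called in any maternal comparison. In LF males Pfkp, a phosphofructokinase, was among the genes with the smallest p (-0.76, limma adjusted p = 0.57). In HF males the genes with the smallest p were Fbp2 (1.96), an enzyme strongly expressed in skeletal muscle, and Grb14 (0.70), with limma adjusted p = 0.94. In LF females they were Gsk3b (-0.53), the kinase that AKT inhibits, and Ldhb (0.98), with limma adjusted p = 0.39, and in HF females Sh2b2 (1.41) and Mpc1 (1.49), with limma adjusted p = 0.13. In HF females 35 of 129 were higher and 9 lower in VDD offspring at an unadjusted p under 0.05 (7.6% and 9.1% of all genes). Among the higher ones were 10 of 13 in the pyruvate dehydrogenase list and 9 of 16 in that of glyceroneogenesis and glycogen. In these females 9 of 10 adipocyte markers (median 0.52) and 8 of 8 brown fat markers (median 4.06) were also higher, none called. The part of cell make-up in the list counts was not tested. Averaged over offspring diets, the genes with the smallest p were Pfkp (-0.50) and Gpi1 (0.59) in males, both with limma adjusted p = 0.38, and Slc2a10 (-1.27, limma adjusted p = 0.054) and Ptprs (-0.68, limma adjusted p = 0.061) in females.

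Whether the mother's diet altered the response to HF was tested as an interaction, and 0 of 9 genes were called in either sex (0.0% of all genes). The limma adjusted p was 0.9997 for each of the 9 in males and 0.63 to 0.99 in females. The largest estimate was that of Pdk4 in females, where the HF difference was -2.70 in offspring of CTRL mothers and -0.66 in those of VDD mothers (interaction 2.01, SE 0.88, limma adjusted p = 0.63). Of the other pathway genes 0 were called, with Aldoc (-3.11) and Pdk2 (1.23) leading in females (limma adjusted p = 0.59 and 0.60) and Slc2a2 (2.71) and Deptor (1.27) in males (limma adjusted p = 0.97 and 0.9997). Both Slc2a2, at group means of 1.1 to 19.3 reads in males, and Aldoc, at 15.6 to 65.1 in females, were scarce.

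The sexes were compared over all 24 mice, and 1 of 9 genes was called, beside 7.27% of all genes. At an unadjusted p under 0.05, 2 were higher and 3 lower in females (17.8% and 15.2% of all genes). Irs2 was lower in females. It had 1369.7 to 3235 reads in 12 males (median 1982) and 456 to 2031 in 12 females (median 1259.8). The ranges overlap, and Irs2 fell by 0.78 on the log2 scale from males to females (SE 0.18, fold 0.584, limma adjusted p = 0.0054). The call was lost in 6 of 24 fits that left out 1 mouse, and without the 7 libraries high in other tissues it was -0.74 and no longer called (limma adjusted p = 0.017). Irs1 differed by 0.42 (SE 0.12, limma adjusted p = 0.018), while Akt2 differed by -0.32 (SE 0.10, limma adjusted p = 0.025) and Insr by -0.24 (SE 0.08, limma adjusted p = 0.031), none past the threshold. The sex and the diet response interacted in 0 of 9 genes (0.0272% of all genes). Of the other pathway genes 8 were called higher in females and 0 lower. Socs2, a suppressor of cytokine signalling, rose by 1.079 (SE 0.15, limma adjusted p = 6.4e-05), Ptprs, a receptor tyrosine phosphatase, by 0.67 (SE 0.10, limma adjusted p = 0.00016), Enpp1, an inhibitor of the insulin receptor, by 1.49 (SE 0.28, limma adjusted p = 0.00089) and Ldhb by 0.93 (SE 0.18, limma adjusted p = 0.0013). Macrophage markers were lower in females, 10 of 10 with a median of -0.70 and 3 called. Other marker lists differed too. Adipocyte markers were lower in 9 of 10 (median -0.19, 1 called) and endothelial markers in 9 of 10 (median -0.33, 0 called). Mesothelial markers were higher in 7 of 7 (median 1.095, 1 called) and adrenal markers in 3 of 5 (median 2.18, 3 called). The part of cell make-up in the sex differences was not tested.

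Genes whose level followed each member most closely were sought among 15622 genes over the 24 mice by Pearson r of log2 values, which share groups, libraries and scaling and are given as a description. Insr was most like Kdm7a (r = 0.94) and Pck1 most like Maco1 (0.94) and Slc27a1 (0.94), a fatty acid transporter. Pdk4 was most like Gadd45g (0.86), with Acacb (0.85), the acetyl-CoA carboxylase that restrains fatty acid oxidation, also near. Akt2 was most like Sun2 (0.93), Irs2 like Gm17116 (0.89) and Klf4 (0.88), and Slc2a4 like Memo1 (0.86). Irs1 was nearest to Socs2 (0.79) and Gpam (0.79), which makes the first step of triglyceride assembly, and Slc2a1 to Ddx56 (0.78). Pik3r1 had no close partner, with Resf1 first at 0.69.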

How the data were processed

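The deposited values were log2 of normalized read counts plus 1, in 8 tables of 6 libraries, each made by the authors for one comparison of 3 against 3 mice. Per the labels and the study's methods, libraries were stranded mRNA, and reads were trimmed with Sickle, aligned to mm10 with STAR 2.7.0d, counted with featureCounts 1.6.1 and normalized with DESeq2 within each table. The authors' fold changes and p-values in the tables were not used. Scaling each library back gave whole reads for 100.0% of values (tolerance 0.02), the same in every table a library appears in, and 4 entries with duplicated names were left out of 56899.

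Genes with at least 10 normalized reads in 3 libraries were tested with limma 3.58.1 (R 4.3.3, trended variance, two-sided, Benjamini-Hochberg adjustment over all genes tested). Pairs of groups were tested on the deposited log2 values. Fits over the 12 mice of a sex and over all 24 used the recovered reads, scaled by the median of ratios over 24 libraries with a pseudocount of 1. Genes were called at an adjusted p below 0.01 when the fold also exceeded 1.5 or fell short of 0.66. Normalized reads in the text are on the 24-library scale. Columns name the group and the mouse, so libraries were mapped to groups only. The fits were checked on simulated counts that held no outlying mice and no RNA of other tissues, so the check does not cover these.

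The members and lists were chosen with earlier results of these data known. The pathway genes named are those with the smallest p, 4 where genes were called and 2 otherwise, and others are said to be chosen after their values were seen. One gene that this rule names is not reported here. Alternatives covered scaling, pseudocount, filter, voom, a muscle covariate, a joint fit, each mouse left out, and libraries with "renal" in their name, whose meaning the sources used here do not give. Leaving out libraries high in other tissues, scaling to adipocyte markers and an adjusted p under 0.05 were added after the data were seen. Figures used Python 3.11.15 and matplotlib 3.10.9.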

Additional observations from a re-analysis of the deposited data

Results flagged for a closer look

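In females the response of Pdk4 to HF differed between offspring of VDD and CTRL mothers by 2.007 on the log2 scale (SE 0.88, limma adjusted p = 0.63). The estimate was 1.16 with VDD HF female 2083 left out and 2.46 with VDD HF female 2081 left out.

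The maternal difference of Slc2a1 was higher in females than in males by 0.8049 (SE 0.27, limma adjusted p = 0.70), and leaving out 1 mouse moved it between 0.61 (CTRL HF male 2127 omitted) and 0.95 (CTRL HF male 2131 omitted). That of Irs1 was lower in females, with a difference of -0.7505 (SE 0.24, limma adjusted p = 0.70), and moved between -0.90 (VDD HF female 2121 omitted) and -0.59 (VDD HF female 2083 omitted). These 3 are listed because the test of the difference itself had an unadjusted p under 0.05, and none passed after adjustment over all genes.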

How the results depend on the processing

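Of 3096 values of the 9 genes under alternatives, 3058 kept their direction and side of the threshold or had no unadjusted p under 0.05 on either side, 26 lost and 10 gained a call, and 2 reversed. In 160 the sign changed. Relative to adipocyte markers, the male HF difference of Irs1 became 0.07 (0.0672) and that of Akt2 0.06 (0.05732), calls numbered 1 in CTRL females and 0 in males pooled over mothers, and Irs2 lost its call between the sexes (0 called). An adjusted p under 0.05 gave 1 call in CTRL males, 1 in VDD males and 3 in CTRL females on HF, and 3 in males pooled over mothers, with Pck1 added. One fit over the 12 males gave 1 call, Insr, in VDD males. Males pooled over mothers had 1 call without the filter on low reads, and 0 without the libraries high in other tissues and without those named renal. Between the sexes 0 were called in those last 2 settings and under upper quartile scaling. Leaving out 1 mouse gave 1 to 3 calls in males on HF, 0 to 1 in females and 0 to 1 between the sexes, and the cause of these changes was not tested.

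Over all genes, calls on HF numbered 9 in CTRL males (1 to 182 over alternatives), 12 in VDD males (0 to 842), 0 in CTRL females (up to 1093) and 1170 in males pooled (27 without the libraries named renal). Between the sexes they numbered 1338 (363 without those libraries, 514 without those high in other tissues, 2199 at an adjusted p under 0.05). No paired analysis was possible because the columns carry mouse numbers and not the replicate numbers of the labels, which the sources tie to no litter or batch. With 3 mice a group, differences of the size seen for Slc2a4 and Slc2a1 were not resolved.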
